A study of Mus musculus with 8 samples.

Results

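Fatty acid oxidation is the pathway by which mitochondria shorten fatty acids and pass the released electrons to the respiratory chain. The genes described here are 9 of its mRNAs, chosen by name (Cpt1a, Cpt1c, Cpt2, Acadm, Acadl, Acadvl, Hadha, Hadhb and Etfdh) from the 13996 genes with deposited expression values. Cortexes came from male C57BL/6 mice of 16 weeks, 4 on a normal diet and 4 that received a high fat diet (HFD) for the last 8 weeks, and each mouse gave a single rRNA-depleted library. The values are FPKM, fragment numbers scaled to transcript length and to library size and rounded to 0.1, so levels of different genes can be set side by side while the read number behind a value is unknown. All 9 genes passed the filter on low values, with a mean of at least 1 FPKM and no value of 0.

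In the pathway, long fatty acids are bound to coenzyme A, exchanged onto carnitine by CPT1 at the outer mitochondrial membrane, carried across the inner membrane and put back onto coenzyme A by CPT2. Acyl-CoA dehydrogenases then open each round of shortening, the trifunctional protein made from Hadha and Hadhb does the following steps on long chains, and the electron transfer flavoprotein and its dehydrogenase Etfdh hand the electrons to ubiquinone. In the brain the pathway is best known from astrocytes, neurons use it little, and Cpt1c is the CPT1 form of neurons, where it sits in the endoplasmic reticulum and has little enzymatic activity.

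Of the 9 genes, 4 changed on the high fat diet at an adjusted p below 0.05 (limma on log2(FPKM + 0.1), two-sided, adjusted by Benjamini-Hochberg over 13982 genes). Log2 changes are HFD minus normal, and SE is their standard error. Hadha, Hadhb and Etfdh fell, and Cpt1c rose. Cpt1a, Cpt2, Acadm, Acadl and Acadvl did not pass the test. Among all genes tested, 33.1% passed it, 15.3% downward and 17.7% upward, so 4 of 9 genes, or 44.4%, has to be read against that background. No member changed by more than 1.5 fold in either direction, which 7.13% of all genes did while passing the test. The values of the diets did not overlap for 3 of the 9 members, and for 31.9% of all genes. The median log2 change was -0.11 over the 9 members and 0.0031 over all genes.

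Marker genes of other brain regions separated the diets in these libraries of cortex. Summed striatal markers were 239 to 440 FPKM in the 4 normal mice and 79.4 to 88.9 in the 4 HFD mice, and summed cerebellar markers were 38.2, 354, 467 and 125 in normal mice 1 to 4 and 28.4 to 35.8 in HFD mice. Because the striatal markers set every normal mouse apart from every HFD mouse, the diet and the share of other regions in the tissue cannot be told apart here. With the mean log2 level of the cerebellar markers in the model (the cerebellum covariate), 0 of the 9 members passed by limma, with 1, Hadha, at an unadjusted p below 0.05. With the same for astrocyte markers (the astrocyte covariate) 1 member passed, Hadha. Without normal mice 2 and 3, which had the most cerebellar marker RNA, Hadha and Cpt1c passed, and the striatal difference remains in that comparison. Of all 13982 genes tested, 4626 passed as reported, 804 with the cerebellum covariate and 1606 with the astrocyte covariate. Without normal mice 2 and 3 the number was 2743. The member counts have to be read against these numbers.

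Hadha and Hadhb, whose products form a complex, are also neighbours on chromosome 5. In the GENCODE M21 annotation of GRCm38, Hadha (ENSMUSG00000025745.11) lies on the minus strand from 30118304 to 30155162 and Hadhb (ENSMUSG00000059447.13) on the plus strand from 30155248 to 30184593. They are read away from each other from starts 86 bases apart, with 85 bases between the genes. No other member has the start of another member within 1000 bases. A start of a protein-coding gene on the opposite strand within 1000 bases, overlapping or not, was annotated for 15.6% of 12504 protein-coding genes tested. Among the members it was annotated for Hadha, Hadhb and Etfdh, for Etfdh at 421 bases with the genes overlapping. The RefSeq start of Hadha lies further inside the gene, 273 bases from that of Hadhb, so the windows of 300 bases around the RefSeq starts (250 before and 50 from the start on) share 228 bases.

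**Figure D1:**
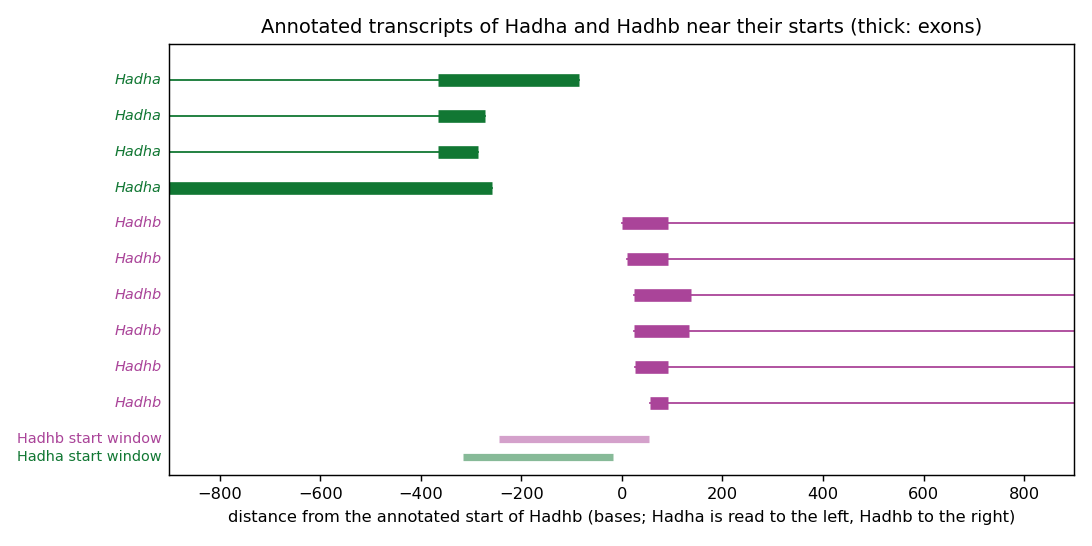
Annotated transcripts of Hadha (green) and Hadhb (purple), each on a line, plotted by distance in bases from the annotated start of Hadhb, with exons thick and introns thin; the pale bars are the windows of 300 bases around the RefSeq starts. The annotated starts lie 86 bases apart and the windows share 228 bases.

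The start windows of Hadhb, Etfdh and Cpt1c are shown, and the first shares 228 bases with that of Hadha. It does not reach the RefSeq start of Hadha at 30154980, so that start is not shown. They are RefSeq sequences of GRCm38.p6 at chr5:30155003-30155302 on the plus strand, chr3:79628718-79629017 on the minus strand and chr7:44974802-44975101 on the minus strand. Each is written 5′ to 3′ on the strand of its gene, and capitals mark matches on either strand to GGGCGG (the GC box), CCAAT or AGGTCA (a binding element of nuclear receptors such as the PPARs).
Hadhb: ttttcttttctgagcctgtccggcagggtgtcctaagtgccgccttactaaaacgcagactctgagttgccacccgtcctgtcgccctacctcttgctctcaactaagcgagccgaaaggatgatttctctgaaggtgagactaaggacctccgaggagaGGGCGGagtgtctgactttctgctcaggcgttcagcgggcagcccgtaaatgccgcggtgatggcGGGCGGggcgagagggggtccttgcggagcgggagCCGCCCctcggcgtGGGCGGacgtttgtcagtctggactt
Etfdh: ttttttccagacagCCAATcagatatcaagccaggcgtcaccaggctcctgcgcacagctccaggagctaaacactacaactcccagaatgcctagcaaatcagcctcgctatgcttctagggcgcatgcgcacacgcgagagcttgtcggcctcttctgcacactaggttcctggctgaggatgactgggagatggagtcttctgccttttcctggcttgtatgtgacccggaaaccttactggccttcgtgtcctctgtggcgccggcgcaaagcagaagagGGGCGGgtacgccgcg
Cpt1c: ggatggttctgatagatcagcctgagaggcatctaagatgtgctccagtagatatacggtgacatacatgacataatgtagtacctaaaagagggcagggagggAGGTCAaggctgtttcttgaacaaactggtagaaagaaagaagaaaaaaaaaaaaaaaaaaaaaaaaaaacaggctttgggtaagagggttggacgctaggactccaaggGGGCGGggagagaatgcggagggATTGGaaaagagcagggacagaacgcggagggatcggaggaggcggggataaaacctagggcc

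GGGCGG occurred 4 times in the Hadhb window, first at position -90 and last at position 24 when the start base is counted as 0, and once in the Hadha window at position -188, a match that the Hadhb window holds too. The GC content was 60.7% for Hadhb, 58.7% for Hadha, 57.3% for Etfdh and 47.3% for Cpt1c, with a median of 52.7% over 32851 windows. The letters GGGCGG were in 7 of the 9 member windows and in 35.7% of all windows, CCAAT in 3 of 9 and in 37.4%, and AGGTCA in 4 of 9 (Acadm, Cpt1c, Acadvl and Cpt1a) and in 16.3%. AGGTCA repeated after 1 base, the usual PPAR element, was in 0 of 9 windows and in 0.0396% of all, and TCAAGGTCA, which contains AGGTCA and is the element of the estrogen-related receptors, was in 0 of 9 and in 0.423%. Both strands were searched. These matches describe letters within short windows and were not tested for any effect.

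Levels of the 9 mRNAs spanned about an order of magnitude within a mouse. On the normal diet the order from the highest mean was Hadhb, Cpt1c, Acadvl, Hadha, Acadm, Etfdh, Acadl, Cpt1a and Cpt2, from 29.4 ± 3.32 to 2.65 ± 0.768 FPKM (SD, n = 4). Hadhb and Cpt1c overlapped in their values, as did Acadm and Etfdh, and no other neighbours in that order did. On the high fat diet Cpt1c was the highest at 33.1 ± 1.41 FPKM, above Hadhb at 23.2 ± 2.16 without overlap, and the neighbours that overlapped were Hadha with Acadm and Etfdh with Acadl. Among all genes tested, the mean of Cpt1c on the high fat diet was above 83.3% of genes and that of Cpt2 above 15.4%.

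**Figure D2:**
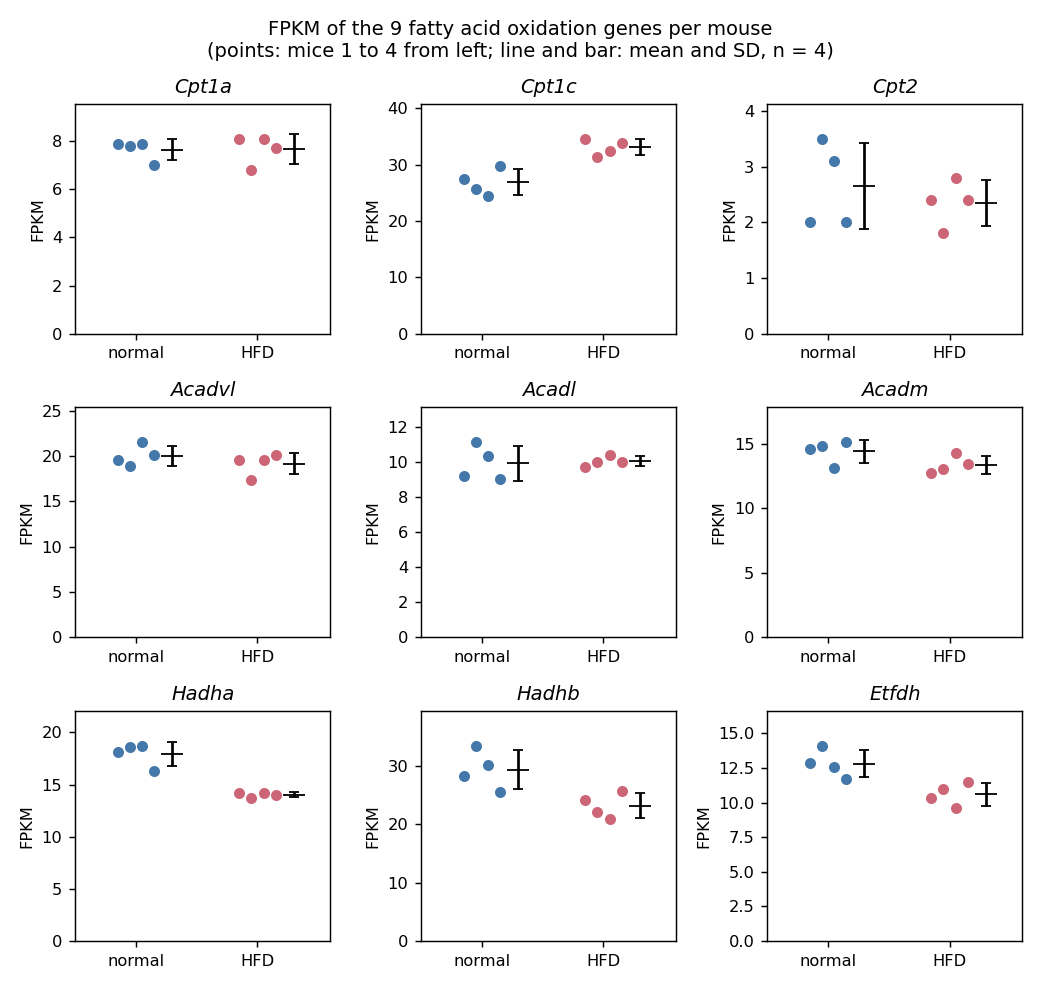
FPKM (vertical axis, from 0) of each member in the normal and HFD mice, with mice 1 to 4 from left to right and the mean and SD beside them (n = 4). The HFD mice lie below every normal mouse for Hadha and Etfdh and above every normal mouse for Cpt1c, while the other 6 genes overlap.

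Hadha encodes the alpha subunit of the trifunctional protein, which carries the hydratase and the long-chain hydroxyacyl-CoA dehydrogenase. Hadha measured 18.1, 18.6, 18.7 and 16.3 FPKM in normal mice 1 to 4, against 14.2, 13.7, 14.2 and 14.0 in HFD mice 1 to 4. All 4 HFD mice were below the lowest normal mouse and close to each other, with a coefficient of variation of 1.69%. The log2 change was -0.35 (SE 0.054, limma adjusted p = 0.00201), which is 0.785 of the normal level. When any one mouse was left out, Hadha was between -0.39 and -0.33 and passed the test in 8 of 8 fits.

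Hadhb encodes the beta subunit, the thiolase of the complex. Hadhb measured 28.3, 33.4, 30.2 and 25.5 FPKM in normal mice 1 to 4, against 24.2, 22.0, 20.8 and 25.6 in HFD mice 1 to 4. The highest HFD mouse reached normal mouse 4, and the other 3 HFD mice were below every normal mouse. The log2 change was -0.34 (SE 0.091, limma adjusted p = 0.0193), or 0.791 of the normal level. The call was lost without HFD mouse 2 (log2 change -0.32, limma adjusted p = 0.0563) and without HFD mouse 3 (-0.29, limma adjusted p = 0.0502).

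The balance of the subunits was compared within each mouse. Hadha was 0.614 ± 0.0391 of Hadhb in normal mice and 0.610 ± 0.0577 of it in HFD mice (n = 4 each, log2 difference -0.012, exact two-sided permutation p = 0.886, adjusted p = 0.886). Against Acadvl, which acts just before it on long chains, Hadha went from a ratio of 0.928, 0.984, 0.870 and 0.811 in normal mice to 0.728, 0.787, 0.725 and 0.697 in HFD mice, with no overlap. That difference, -0.29 on the log2 scale, reached the smallest p that 4 against 4 mice allow (exact permutation p = 0.0286, adjusted p = 0.0714 over the 5 ratios computed), and so did the ratio to Acadl (-0.37, exact permutation p = 0.0286, adjusted p = 0.0714). After adjustment no ratio passed 0.05. The 5 ratios were chosen after the members' values had been seen.

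Etfdh (ENSMUSG00000027809.14, chromosome 3, 79603788 to 79629500, minus strand) encodes the dehydrogenase that takes electrons from the flavoprotein and gives them to ubiquinone. Etfdh measured 12.9, 14.1, 12.6 and 11.7 FPKM in normal mice 1 to 4, against 10.3, 11, 9.6 and 11.5 in HFD mice 1 to 4. The groups did not overlap, although HFD mouse 4 was just below normal mouse 4. The log2 change was -0.27 (SE 0.075, limma adjusted p = 0.0217), or 0.828 of the normal level. The call was lost without normal mouse 2 (adjusted p = 0.0588), HFD mouse 1 (0.0563) or HFD mouse 3 (0.0524, all from limma), with log2 changes of -0.23, -0.26 and -0.23.

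On the opposite strand GENCODE places the start of 4930579G24Rik within Etfdh, with 422 bases shared, and it is not among the genes of the values used here. The RefSeq start of Etfdh, around which the window above was taken, lies 733 bases further inside the gene, and from that start the genes do not overlap. The library kit keeps the strand, and the sources used here do not say whether the counting used it.

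Etfa and Etfb, the subunits of the flavoprotein that feeds Etfdh, were among the 5 genes of electron transfer flavoproteins tested. Of these 1 fell and 0 rose, which is 20.0% against 33.1% of all genes. The gene that fell was Etfb, at 28.0, 30.3, 34.6 and 29.8 FPKM in normal mice and 24.6, 25, 26.2 and 27.9 in HFD mice (log2 change -0.24, SE 0.070, limma adjusted p = 0.0269). Its call was kept in 3 of 8 fits with a mouse left out, namely without normal mouse 1 or 4 or HFD mouse 4, and the adjusted p rose to 0.0728 without HFD mouse 2. Etfa had a log2 change of -0.29 (standard error 0.11) with overlapping diets and an adjusted p of 0.0751 from limma. It passed without normal mouse 1 (-0.38, limma adjusted p = 0.0216), and with the cerebellum covariate it was at 0.055. Etfb was at -0.061 with the cerebellum covariate (limma adjusted p = 0.714), -0.15 with the astrocyte covariate (0.297) and -0.16 without normal mice 2 and 3 (0.122). Within each mouse, Etfdh was 0.421 ± 0.0503 of Etfb in normal mice and 0.409 ± 0.0310 of it in HFD mice (n = 4 each, exact permutation p = 0.80, adjusted p = 0.886).

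Cpt1c (ENSMUSG00000007783.10, chromosome 7, 44959372 to 44974851, minus strand) was the member that rose. Cpt1c measured 27.4, 25.7, 24.5 and 29.8 FPKM in normal mice 1 to 4, against 34.6, 31.4, 32.5 and 33.8 in HFD mice 1 to 4. Each HFD mouse was above each normal mouse, and normal mouse 4 was the closest. The log2 change was 0.30 (SE 0.064, limma adjusted p = 0.00738), or 1.23 times the normal level. Leaving out any one mouse gave 0.26 to 0.35, and Cpt1c passed the test in 8 of 8 fits.

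Cpt1a (ENSMUSG00000024900.4, chromosome 19, 3322334 to 3385733, plus strand) encodes the CPT1 form that controls entry of fatty acids into mitochondria in liver and in glia. Cpt1a measured 7.9, 7.8, 7.9 and 7.0 FPKM in normal mice 1 to 4, against 8.1, 6.8, 8.1 and 7.7 in HFD mice 1 to 4. The ranges overlapped almost fully, and the log2 change was 0.0029 with a 95% interval from -0.16 to 0.17 (limma adjusted p = 0.98). A small change in either direction lies within that interval. Cpt1c was 3.53 ± 0.507 times Cpt1a in normal mice and 4.32 ± 0.252 times in HFD mice, a log2 difference of 0.30 (n = 4 each, exact two-sided permutation p = 0.0571, adjusted p = 0.0952 over the 5 ratios). Cpt1b, the muscle form, was not among the genes of the values used here.

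Cpt2 (ENSMUSG00000028607.16, chromosome 4, 107903981 to 107923610, minus strand) was the lowest member and the most variable. Cpt2 measured 2.0, 3.5, 3.1 and 2.0 FPKM in normal mice 1 to 4, against 2.4, 1.8, 2.8 and 2.4 in HFD mice 1 to 4. Normal mice 2 and 3 were the highest of all 8, and the log2 change of -0.14 had a 95% interval from -0.60 to 0.32 (limma adjusted p = 0.626). Without normal mouse 2 the log2 change was 0.0035, and without normal mice 2 and 3 it was 0.21. Slc25a20, the carrier that moves acylcarnitines across the inner membrane to CPT2, was 6.9, 6.8, 7.0 and 6.7 in normal mice and 4.9, 5.7, 4.9 and 5.3 in HFD mice. These groups were apart, with a log2 change of -0.39 (SE 0.067, limma adjusted p = 0.0030) that passed in 8 of 8 fits with a mouse left out, and not with the cerebellum covariate (-0.37, limma adjusted p = 0.0835). It was the single gene that passed among 4 further genes of the carnitine shuttle tested.

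The acyl-CoA dehydrogenases Acadvl, Acadl and Acadm act on very long, long and medium chains, and none of them passed the test. Acadvl (ENSMUSG00000018574.14, chromosome 11, 70010183 to 70015411, minus strand) was 20.0 ± 1.11 FPKM in normal mice and 19.2 ± 1.20 in HFD mice (SD, n = 4), with values of 19.5, 18.9, 21.5 and 20.1 against 19.5, 17.4, 19.6 and 20.1. Acadl (ENSMUSG00000026003.5, chromosome 1, 66830839 to 66863277, minus strand) was 9.2, 11.1, 10.3 and 9.0 in normal mice and 9.7, 10, 10.4 and 10 in HFD mice. Every HFD mouse of Acadl lay inside the range of the normal mice. Acadm (ENSMUSG00000062908.12, chromosome 3, 153922357 to 153944632, minus strand) was 14.6, 14.8, 13.1 and 15.1 in normal mice and 12.7, 13.0, 14.3 and 13.4 in HFD mice. For Acadm 2 of the HFD mice were below all normal mice. The log2 changes were -0.063 for Acadvl (95% interval -0.20 to 0.074, adjusted p = 0.452), 0.023 for Acadl (-0.14 to 0.19, adjusted p = 0.832) and -0.11 for Acadm (-0.25 to 0.030, adjusted p = 0.203, all from limma). Among the 5 further acyl-CoA dehydrogenases tested, 1 passed (20.0%, against 33.1% of all genes). This was Acad11, which fell from 10.1 ± 0.673 to 8.05 ± 0.412 FPKM (log2 change -0.32, limma adjusted p = 0.00575). Acad11 lost its call with the cerebellum covariate (-0.23, limma adjusted p = 0.200) and the astrocyte covariate (-0.22, 0.103). Acads, the short-chain enzyme, was at -0.22 (limma adjusted p = 0.186).

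**Figure D3:**
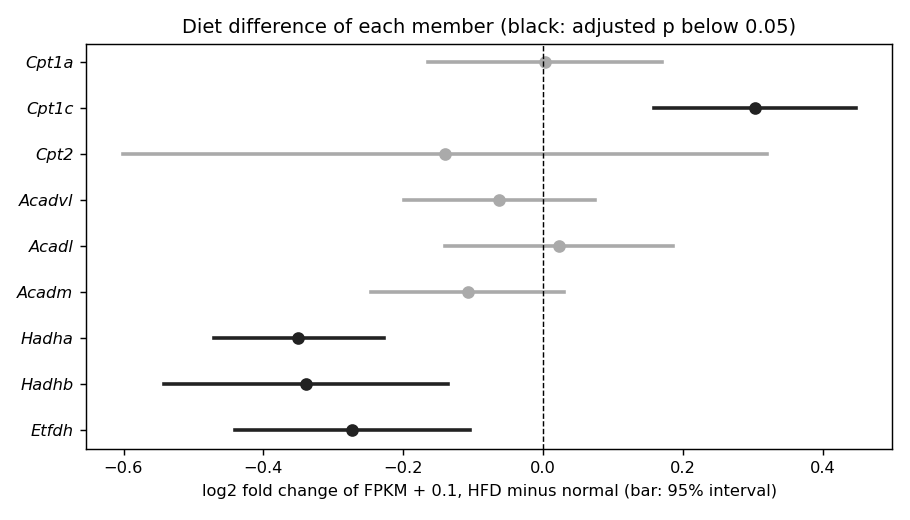
Log2 change of FPKM + 0.1 (HFD minus normal, horizontal axis) of each member with its 95% interval from limma, black where the adjusted p was below 0.05. The intervals of Hadha, Hadhb and Etfdh lie below 0, that of Cpt1c above 0, and those of the other 5 members include 0.

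The 10 other enzymes of the matrix that were tested gave no call by limma (1 was at an unadjusted p below 0.05), while 33.1% of all genes passed. Echs1, Hadh and Acaa2, which do on shorter chains what the trifunctional protein does on long ones, had log2 changes of 0.075, -0.041 and 0.059 (standard errors 0.063, 0.060 and 0.097), and none passed the test (adjusted p of 0.382, 0.624 and 0.668 from limma). Echdc1, which was listed with them but is an enzyme of the cytosol that removes ethylmalonyl-CoA, fell from 14.2 ± 1.23 to 10.1 ± 0.299 FPKM (log2 change -0.48, SE 0.067, limma adjusted p = 0.0014), and was at -0.27 with the cerebellum covariate (limma adjusted p = 0.0609).

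Outside the 9 members, 114 genes were listed for the pathway and its surroundings, and 97 of them were tested. Of these 32 passed, 11 upward and 21 downward, which is 33.0%, near the 33.1% of all genes, with a median log2 change of -0.030. The change exceeded 1.5 fold in either direction for 3 of them. The share that passed in a list ran from 9.09% (1 of 11) to 46.7% (7 of 15), and no list was tested against the background.

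Genes of peroxisomal oxidation, the route for very long and branched fatty acids, numbered 16 tested, of which 5 fell and 1 rose. The share that passed was 37.5%, against 33.1% of all genes. Abcd2 and Abcd3, transporters that bring fatty acyl-CoA into peroxisomes, fell the most. Abcd2 was 15.6, 14.0, 13.5 and 13.6 FPKM in normal mice and 8.7, 8.8, 11.7 and 8.3 in HFD mice, with HFD mouse 3 above the other HFD mice (log2 change -0.60, SE 0.10, limma adjusted p = 0.00323). Abcd3 was 27.4 ± 2.41 in normal mice and 20.3 ± 0.961 in HFD mice (log2 change -0.43, limma adjusted p = 0.00226), and was at -0.27 with the cerebellum covariate (limma adjusted p = 0.111). The gene that rose was Acox3, an acyl-CoA oxidase, at 0.18 (limma adjusted p = 0.0393), and it kept its call in 1 of 8 fits with a mouse left out, that without HFD mouse 4, and the adjusted p reached 0.0829 without HFD mouse 3. Acox3 did not pass with the cerebellum covariate (0.20, limma adjusted p = 0.245), with the astrocyte covariate (0.19, 0.165) or without normal mice 2 and 3 (0.20, 0.103). Its standard error was 0.059 as reported, and 0.098, 0.084 and 0.075 in these settings.

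For uptake and activation of fatty acids 15 genes were tested, and 2 rose and 5 fell, which is 46.7% against 33.1% of all genes. Fabp7, the brain fatty acid-binding protein of astrocytes and radial glia, was 26.8, 48.9, 49.9 and 44.7 FPKM in normal mice and 17.6, 18.8, 11.2 and 18.7 in HFD mice. The diets did not overlap, and the log2 change was -1.34 (SE 0.22, limma adjusted p = 0.00257). With the cerebellum covariate it was -0.68 and did not pass (limma adjusted p = 0.129). Fabp5, a related binding protein, fell from 94.9 ± 4.69 to 71.5 ± 5.29 (log2 change -0.41, limma adjusted p = 0.00176), and also lost its call with that covariate (-0.34, limma adjusted p = 0.0743). Acsf2, an acyl-CoA synthetase near the lower limit of the filter, rose from 1.45 ± 0.129 to 1.98 ± 0.189 (log2 change 0.42, limma adjusted p = 0.0269) and Slc27a1, a fatty acid transport protein, from 23.7 ± 1.30 to 26.8 ± 0.618 (0.18, limma adjusted p = 0.0222). Acsf2 kept its call in 3 of 8 fits with a mouse left out (without normal mouse 1 or 3 or HFD mouse 4, and the adjusted p reached 0.0743 without HFD mouse 2), and Slc27a1 in 6 of 8, losing it without HFD mouse 1 (0.0534) or HFD mouse 4 (0.0544, all from limma). Acsf2 lost it too with the cerebellum covariate (log2 change 0.39, adjusted p = 0.271), with the astrocyte covariate (0.43, 0.145) and without normal mice 2 and 3 (0.42, 0.0828, all from limma). Slc27a1 was at 0.30 with the cerebellum covariate.

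Of 10 acyl-CoA thioesterases, which release free fatty acids from coenzyme A, 3 fell and 0 rose. That share was near the 33.1% of all genes that passed. Them4 was at -0.51 (standard error 0.087, adjusted p = 0.00293), Acot9 at -0.21 (adjusted p = 0.0126) and Acot11 at -0.21 (adjusted p = 0.0361, all from limma) on the log2 scale. Them4 was at -0.27 with the cerebellum covariate (limma adjusted p = 0.154) and -0.36 with the astrocyte covariate (0.0537). Acot9 and Acot11 lost their calls with the cerebellum covariate (limma adjusted p = 0.181 and 0.526), with the astrocyte covariate (0.135 and 0.474) and without normal mice 2 and 3 (0.0616 and 0.219). In these settings Acot9 was at -0.20, -0.17 and -0.20, and Acot11 at -0.11, -0.087 and -0.14. The standard error of Acot9 was 0.051 as reported, and 0.084, 0.069 and 0.064 in these settings. Acot11 kept its call in 3 of 8 fits with a mouse left out, without normal mouse 1 or 4 or HFD mouse 1, and the adjusted p reached 0.0995 without HFD mouse 2 from limma. Of 6 genes of ketone body metabolism, 2 fell and 0 rose, a share of 33.3% that is also near that of all genes. Slc16a1, a carrier of ketone bodies and lactate, fell from 13.8 ± 1.90 to 10.3 ± 0.378 FPKM (log2 change -0.41, limma adjusted p = 0.0107), and was at -0.27 with the cerebellum covariate (limma adjusted p = 0.291), -0.22 with the astrocyte covariate (0.197) and -0.27 without normal mice 2 and 3 (0.0706). Oxct1, which activates acetoacetate for use, went from 107.2, 106.7, 104.8 and 109.0 to 96.3, 97.1, 95.8 and 98.0 (log2 change -0.14, SE 0.036, limma adjusted p = 0.0144). Its call was lost under the cerebellum covariate (-0.16, SE 0.057, limma adjusted p = 0.117).

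Among 16 regulators of oxidation, 5 rose and 1 fell on the high fat diet, which is 37.5% against 33.1% of all genes and so near the background. Ppargc1a, a coactivator of mitochondrial genes, was 9.0, 9.9, 8.7 and 9.9 FPKM in normal mice and 13.2, 12.9, 13.1 and 11.9 in HFD mice (log2 change 0.44, SE 0.063, limma adjusted p = 0.00141). Prkaa2 and Prkaa1 encode the alternative catalytic subunits of AMPK, the kinase that relieves the block of malonyl-CoA on CPT1. Prkaa2 rose from 7.10 ± 1.10 to 10.2 ± 0.427 (log2 change 0.52, limma adjusted p = 0.00484), while Prkaa1 fell from 8.63 ± 0.624 to 7.30 ± 0.115 (-0.23, limma adjusted p = 0.0196). Prkaa2 was at 0.26 with the cerebellum covariate (limma adjusted p = 0.248), at 0.26 with the astrocyte covariate (0.0625) and at 0.34 without normal mice 2 and 3 (0.0173). In the same settings Prkaa1 was at -0.082 (limma adjusted p = 0.591), -0.13 (0.294) and -0.15 (0.137). Prkaa1 also lost its call without normal mouse 2 (adjusted p = 0.0545) or normal mouse 3 (0.0516, both from limma). Mlycd, which degrades malonyl-CoA, was at 0.062 and did not pass (limma adjusted p = 0.452).

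Of 16 genes listed as lipid genes that respond to PPARs, 9 were tested, and 3 rose and 1 fell. The share that passed was 44.4%, against 33.1% of all genes. Pdk4, Ucp2, Ucp3, Pnpla2 and Hilpda did not pass. Their log2 changes were -0.016, 0.11, 0.16, 0.32 and -0.067 (limma adjusted p of 0.910, 0.644, 0.672, 0.0798 and 0.755). Plin4, a coat protein of lipid droplets, was 0.6, 1.4, 0.8 and 0.7 FPKM in normal mice and 2.8, 1.9, 3.5 and 2.8 in HFD mice, where rounding to 0.1 limits the precision (log2 change 1.58, limma adjusted p = 0.00248). Pdk2, a kinase that restrains the entry of pyruvate into the citric acid cycle, was at 0.38 (adjusted p = 0.00886) and Txnip, an inhibitor of thioredoxin, at 0.30 (adjusted p = 0.0205, both from limma). Plin2, another droplet protein, fell by 0.42 on the log2 scale (limma adjusted p = 0.0241) with overlapping diets. Plin2 kept its call in 4 of 8 fits with a mouse left out (without normal mouse 1 or 4 or HFD mouse 1 or 4, and the adjusted p reached 0.0686 without HFD mouse 2), and Txnip lost it without HFD mouse 4 (0.0531, all from limma). Plin2 was at -0.16 with the cerebellum covariate (limma adjusted p = 0.589), -0.21 with the astrocyte covariate (0.360) and -0.30 without normal mice 2 and 3 (0.154). Pdk2 and Txnip were at 0.58 and 0.52 with the cerebellum covariate and passed.

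**Figure D4:**
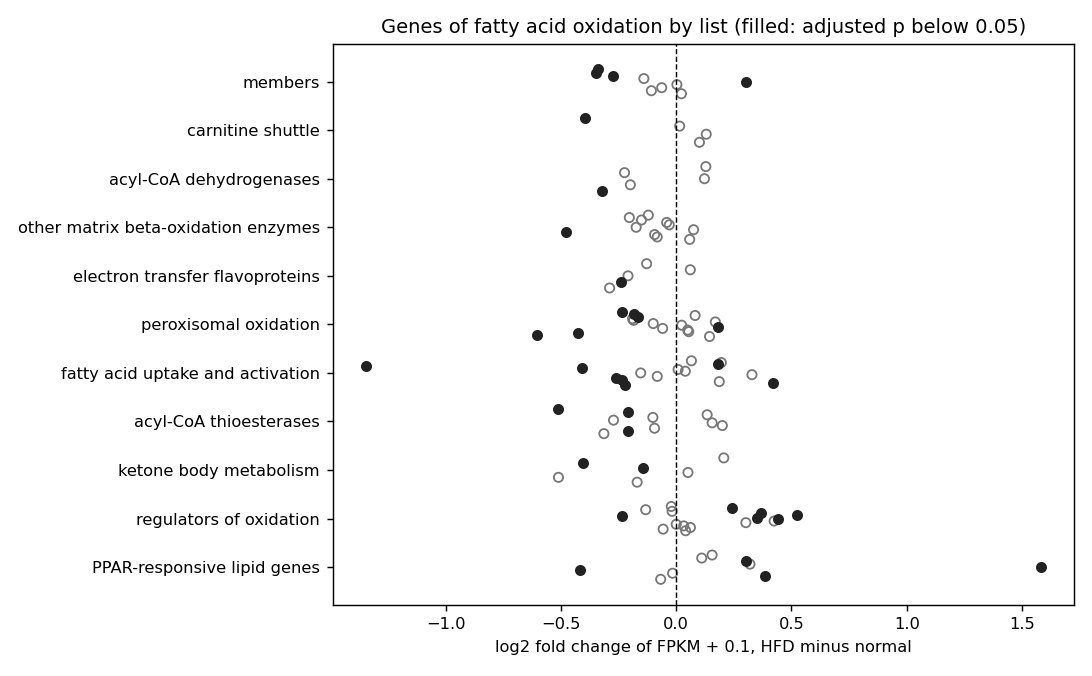
Log2 change of FPKM + 0.1 (HFD minus normal, horizontal axis) of each gene tested, by list, filled where the adjusted p from limma was below 0.05. The filled points of the ketone body and thioesterase lists lie below 0 (2 of 6 and 3 of 10 genes). Among regulators 5 of the 6 filled points lie above 0, a filled share of 37.5%. The filled share of each of these lists is near the 33.1% of all genes.

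Markers of several cell types moved with the diets as well, and in bulk tissue fewer cells of a type and less RNA per cell cannot be told apart. Among all genes tested, 15.3% passed downward and 17.7% upward, and the marker counts have to be read against these shares. The 10 markers of cortical projection neurons were all present, and 7 rose and 0 fell, with a summed level of 309.7 to 460 FPKM in normal mice and 506 to 596 in HFD mice. Of the astrocyte markers 4 of 12 fell and 3 rose, with sums of 1336 to 1548 and 1306 to 1387. Oligodendrocyte markers fell in 10 of 10, with sums of 2146 to 3537 and 1482 to 2060, endothelial markers fell in 2 of 8 and rose in 1, with sums of 85.0 to 93.4 and 76.4 to 85.7, and microglial markers passed in 0 of 7 by limma (1 at an unadjusted p below 0.05), with sums of 137 to 167 and 146 to 157. Markers of other regions were present as well. Striatal markers fell in 9 of 9 and cerebellar markers in 5 of 8, with the sums given above, and the granule cell gene Gabra6 was 1.7, 46.5, 61.7 and 12.2 against 0.2 or less, listed at 0 in HFD mouse 1. Choroid plexus and ependyma markers fell in 6 of 9, with sums of 353 to 748 and 25.7 to 953 where HFD mouse 4 was the highest, and blood markers fell in 5 of 5, with sums of 239 to 480 and 199 to 247. Gabra6 was the one marker listed at 0 in any mouse. The part of these shifts in the members' differences was not tested.

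The comparison without normal mice 2 and 3 was chosen after the data were seen. Hadha (log2 change -0.29, SE 0.061, limma adjusted p = 0.0168) and Cpt1c (0.21, SE 0.060, limma adjusted p = 0.0444) still passed, and their values did not overlap between the remaining mice. Hadhb (-0.22, adjusted p = 0.124) and Etfdh (-0.21, adjusted p = 0.117, both from limma) no longer passed. With the cerebellum covariate the log2 changes were -0.29 for Hadha (standard error 0.087, adjusted p = 0.0789), 0.18 for Cpt1c (adjusted p = 0.276), -0.18 for Hadhb (adjusted p = 0.447) and -0.21 for Etfdh (adjusted p = 0.323, all from limma). With the astrocyte covariate Hadha was at -0.26 (limma adjusted p = 0.0339), Cpt1c at 0.20 (0.126), Hadhb at -0.16 (0.315) and Etfdh at -0.21 (0.219). Both marker means were higher on average in the normal mice, so a covariate also takes up part of the diet difference. Of the 23 other pathway genes named here that passed, 6 also passed in all 3 of these settings, in the direction reported (Abcd2, Slc27a1, Ppargc1a, Plin4, Pdk2 and Txnip). The call was lost by 17 with the cerebellum covariate, by 11 with the astrocyte covariate and by 8 without normal mice 2 and 3. Of all genes tested, 4626 passed as reported, and 804, 1606 and 2743 passed in these settings. How many of all genes passed in all 3 was not counted. The 23 genes were named by their calls or the size of their changes, so the 6 cannot be compared with all genes here. Summed astrocyte markers were also highest in normal mice 2 and 3 (1524 and 1548 FPKM), so the 3 settings are not separate checks. None of them took in the striatal markers.

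**Figure D5:**
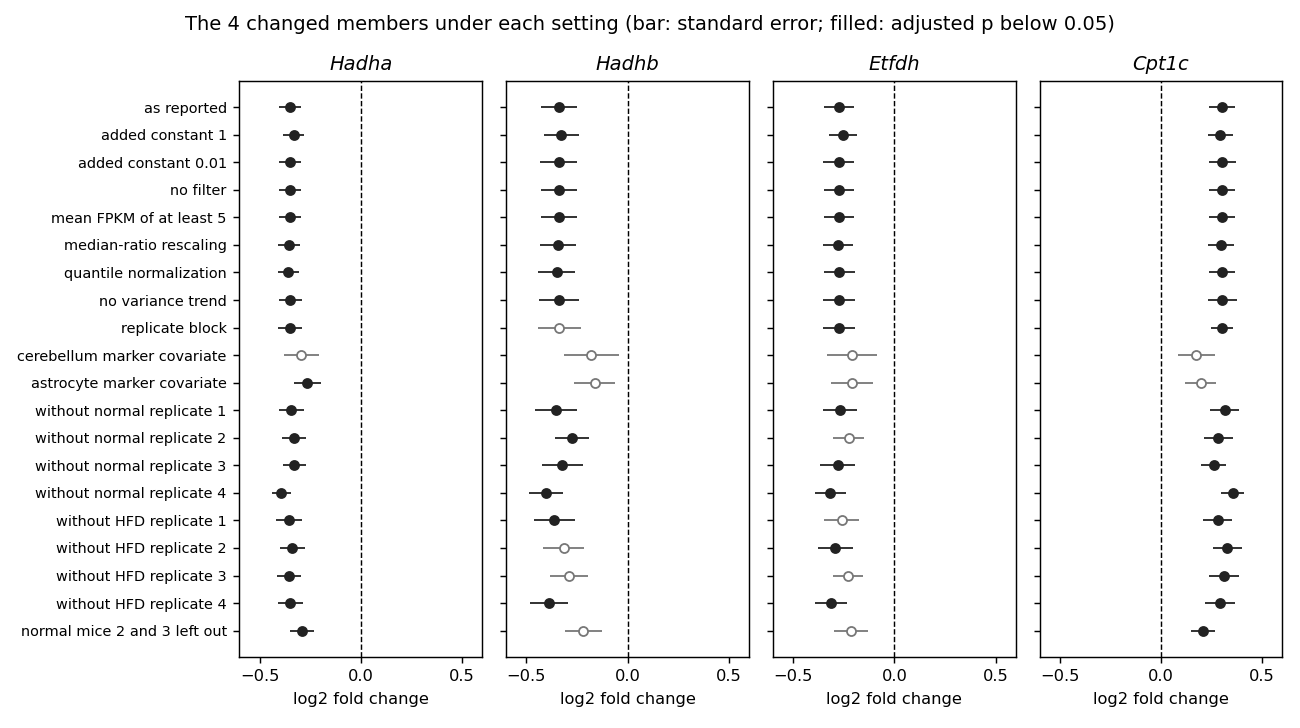
Log2 change (HFD minus normal, with standard error bars) of the 4 members that changed, as reported and under each other setting, filled where the adjusted p from limma was below 0.05. Every point of Hadha, Hadhb and Etfdh lies below 0 and every point of Cpt1c above 0, while with the cerebellum marker covariate all 4 points are open.

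For each member the gene outside the lists with the most similar values within diets was found among 9501 genes with a mean of at least 5 FPKM, as a description. The likeness was Pearson's r of log2(FPKM + 0.1) over the 8 mice after the mean of each diet was subtracted. The closest genes were Gjc3 for Hadha (r = 0.96), Anapc13 for Hadhb (0.98), Tspan31 for Etfdh (0.99) and B3galt2 for Cpt1c (0.98). For the other members they were Cdc34 for Cpt1a (0.97), Tsc22d3 for Cpt2 (0.99), Ndfip1 for Acadm (0.96), Adipor2 for Acadl (0.99) and Tmed3 for Acadvl (0.99). Each is the highest of many comparisons over few mice, so values of this size say little about any single pair.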

How the data were processed

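Cortex RNA of 8 mice was sequenced after rRNA depletion. The authors trimmed reads with Trimmomatic, mapped them to mm10 with STAR and made the deposited FPKM with Cuffnorm on GENCODE M17 basic genes (the sources used here give no tool versions). FPKM summed to 562431 to 639142 per mouse, and without counts the depth and counting error are unknown.

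Genes with a mean of at least 1 FPKM and no 0 (13982 of 13996) were tested as log2(FPKM + 0.1) with limma 3.58.1 (R 4.3.3, trended variance, two-sided, Benjamini-Hochberg). The same fit was also run on simulated data with known changes. The added 0.1 understates changes of low genes. Ratios used exact permutation tests (scipy 1.17.1). Positions came from GENCODE M21 and start sequences from RefSeq, for 9 of 9 members. The members and lists were chosen with earlier results of these data known. Other genes were named when called, up to 4 per list and otherwise the largest 2 each way, or when they share a step with a member. The genes of the PPAR list that did not pass are named as well. One listed gene is not reported here and is in no list count.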

Additional observations from a re-analysis of the deposited data

Results flagged for a closer look

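In 86 groups of 4 mice (38 of the named genes and 5 ratios, each diet apart), 5 held a mouse apart from the others. Its gap to its nearest neighbour, as a share of the group's range, was past Dixon's 95% critical value for 4 samples. Chance alone passes about 1 group in 20. Among the members this was Cpt1a in normal mice (0.889), where mouse 4 had 7.0 FPKM and the others 7.8 or 7.9. Normal mouse 4 also stood apart for Hadh (1.0), with 9.1 FPKM against 10.4 in the other 3 mice. Acad11 in normal mice (0.857) had mouse 3 at 11.1 FPKM. In the HFD mice, mouse 3 was apart for Abcd2 (0.853), at 11.7 FPKM, and for Fabp7 (0.842), at 11.2 FPKM.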

How the results depend on the processing

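Cpt1c, Hadha, Hadhb and Etfdh kept their direction under every setting tried, and no member changed its side of the threshold with another added constant, no filter, no variance trend, median-ratio rescaling or quantile normalization. The number of members, of listed pathway genes and of all genes that passed was 4, 32 and 4626 as reported, 0, 8 and 804 with the cerebellum marker covariate, 1, 15 and 1606 with the astrocyte marker covariate, and 2, 20 and 2743 without normal mice 2 and 3, a setting chosen after seeing the data. The cause of these losses was not tested. Leaving out 1 mouse at a time, the numbers ranged from 2 to 4, from 24 to 35 and from 3295 to 4619, and 2 members passed without HFD mouse 3. The log2 change turned direction for genes that had not passed the test. Cpt1a went from 0.0029 to -0.0037 with median-ratio rescaling, to -0.0032 with quantile normalization and to between -0.039 and 0.059 with a mouse left out. Cpt2 was 0.40 with the cerebellum covariate, 0.32 with the astrocyte covariate, 0.21 without normal mice 2 and 3, and from -0.26 to 0.0035 with a mouse left out, and Acadl ranged from -0.021 to 0.079. Hadh was 0.013 with the astrocyte covariate and 0.0064 without normal mice 2 and 3. Acaa2 was -0.115, -0.034 and -0.028 with the cerebellum covariate, the astrocyte covariate and without those mice, and from -0.010 to 0.14 with a mouse left out. With the cerebellum covariate Etfa was 0.055. Acsf2 did not pass with quantile normalization (adjusted p = 0.0515 from limma). The sources used here do not say whether equal replicate numbers pair the mice. Same-numbered mice correlated at -0.038, -0.028, -0.11 and -0.072 in their deviations from the diet means, and 0 of 4 was closest to its own number. A pairing that leaves no such likeness would be missed. With the number as a replicate block, 3 members, 24 pathway genes and 3390 genes passed, and Hadhb did not (adjusted p = 0.0612 from limma), while Etfa did (0.0301). Rescaling moved the median of all genes by less than 0.01 on the log2 scale.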
